A study of Mus musculus with 4 samples.

Results

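Checkpoint and nectin-binding receptors of mouse natural killer (NK) cells were examined for the RNA mark N6-methyladenosine (m6A). The 10 genes were Tigit, Cd96, Cd226, Havcr2, Lag3, Pdcd1, Ctla4, Cd200r1, Ncr1 and Cd160, and their peaks were the rows of the m6A peak list that carried the Ensembl identifier of a listed gene. Of 20727 distinct peaks in 12351 genes, 9 peaks belonged to 6 of the 10 receptor genes. NK cells were sorted from the spleens of wild-type C57BL/6 mice and gave 2 m6A immunoprecipitates and 2 input RNA libraries. The input libraries received no antibody, and the mice behind both groups had been given an IL-15 expression plasmid (pLIVE-IL-15) to expand their NK cells. The labels give neither age nor the number of mice per library, and the age range in the methods, for all mice of the study, is that of young adults. The list names no sample, so each peak has a single fold enrichment (reads in immunoprecipitate over input, a ratio without unit) and a single peak-calling p-value. The depth of each library and the error between replicates are unknown, and the comparisons below are descriptions without a test.

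These receptors set how NK cells respond to the cells they touch. Tigit, Cd96 and Cd226 bind nectins and nectin-like proteins, above all Pvr, and compete for them: Cd226 activates the cell, whereas Tigit inhibits it. Havcr2, Lag3, Pdcd1 and Ctla4 are inhibitory receptors best known as checkpoints of T cells, and Cd200r1 is the inhibitory receptor for Cd200. Ncr1 encodes the activating receptor NKp46 that marks NK cells, and Cd160 is a receptor for Tnfrsf14 and for class I molecules. The mark m6A is written on mRNA by METTL3 and METTL14, is often found near stop codons, and is read by proteins that alter the decay or the translation of the mRNA. The writers act on DRACH, a motif in which the core AC is preceded by A or G, this in turn by any base but C, and the core is followed by any base but G.

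The sequences below show what each peak holds, since a peak marks a stretch of fragments and not a single base. They were read from GRCm38 on the strand of the gene, 5′ to 3′, and capitals mark a DRACH match that lies wholly inside the peak, as only such matches were counted. In the windows from Ncr1 without such a match, capitals mark the start or the stop codon.
Tigit, coding part of the peak, exons 1 and 2, between chr16:43662233 and 43664087: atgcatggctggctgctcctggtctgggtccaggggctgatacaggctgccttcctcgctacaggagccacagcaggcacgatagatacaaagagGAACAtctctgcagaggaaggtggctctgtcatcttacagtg
Cd96, site nearest the peak centre, chr16:46035733-46035757: tggaaataaaTGACTtctattccca
Lag3, site at the stop codon, chr6:124904430-124904454: caggcagctcTGACCtggagccgag
Ctla4, pair of sites in the 3′ UTR, chr1:60915354-60915382: taGGACActaatccatcaggttGGACTcg
Ncr1, start codon in the first peak, chr7:4337738-4337762: tggccactggtATGctgccaacact
Ncr1, stop codon in the second peak, chr7:4344691-4344715: ctggggccttgTGAgctctatgctg
Ncr1, the only site wholly inside the last peak, chr7:4345041-4345065: tcttaactacAAACCatatctccag
Cd160, site at the stop codon, chr3:96800591-96800615: atataccttgTGACAgagagaaaaa
Cd160, site nearest the centre of the distal peak, chr3:96798869-96798893: ataagcccgtGAACTttcgtgtatg

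A peak was listed for 6 of the 10 receptor genes, beside 46.3% of all protein-coding genes. The fold enrichments were low beside those of the list. The highest fold enrichment was 4.57 at Cd160, and it was followed by 2.16 at Cd96, 2.15 at Lag3 and 1.58 at Ctla4. Tigit and Ncr1 came last, with a highest value of 1.36 each. These are single values without an error, so neighbours in the order cannot be separated. None of the 9 peaks reached a fold enrichment of 5, against 34.6% of all peaks. Among the 15224 peaks that, like all 9 receptor peaks, could be placed on a coding transcript, 11195 were under this value. The study used this value to select genes for its pathway enrichment. In genes, a fold enrichment of 5 was reached by 0 of 10 receptors beside 20.1% of protein-coding genes. A fold enrichment of at least 2 was met by 3 of 9 peaks (63.9% of all peaks), that is by 3 of 10 genes (35.0% of protein-coding genes). The median over the receptor peaks was 1.55 (quartiles 1.36 and 2.15), and over all peaks it was 2.66 (quartiles 1.73 and 9.48). Many rows of the list paired a high fold enrichment with weak significance, such as 9.48 with a log10 p of -1.69. Such rows count in the shares over all peaks, so listed fold enrichments are compared here and not degrees of methylation.

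By significance the receptor peaks stood the other way. The median log10 of the p-value was -9.96, against -4.1 over all peaks. A p-value under 0.001 was reached by 8 of 9 peaks, against 61.5% of all peaks, and by 5 of the 10 genes, against 34.0% of protein-coding genes. The peak of Ctla4 was the exception. Such significance was not particular to the receptors. In the lists below, a p-value under 0.001 was reached by 8 of 8 NK cell markers, 5 of 5 myeloid markers and 17 of 18 signalling genes. Among related receptors it was reached by 4 of 13. The read counts behind each peak are not given, and their part in the p-values was not tested.

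**Figure D1:**
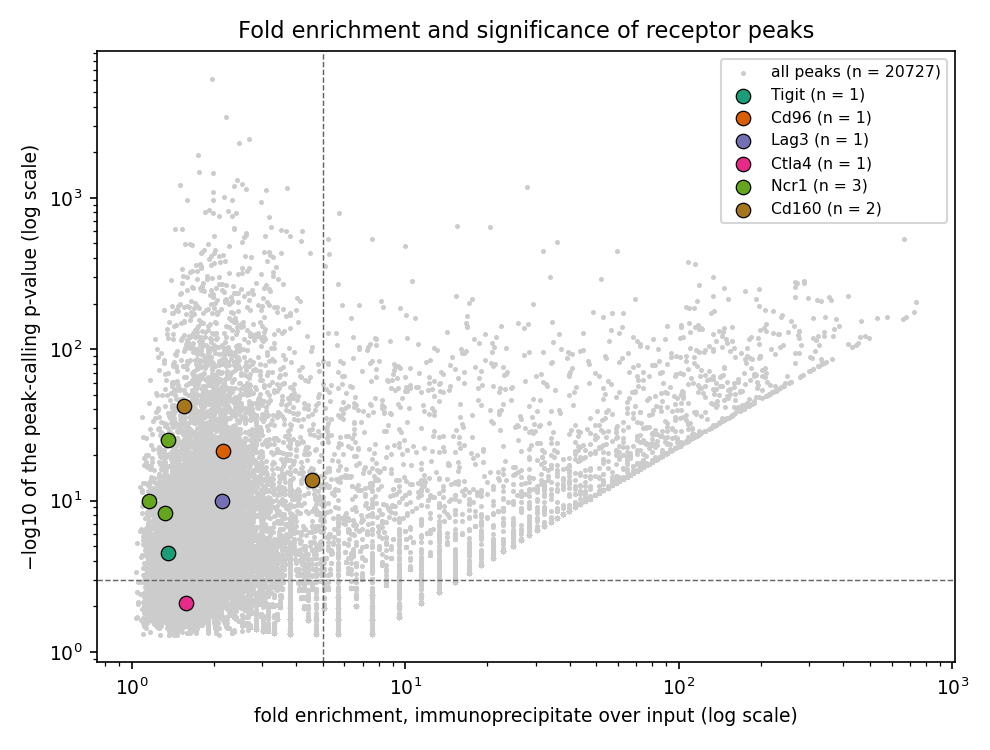
Fold enrichment (x axis, log scale, no unit) against −log10 of the peak-calling p-value (y axis, log scale) for all 20727 peaks in grey and the 9 receptor peaks in colour by gene. Dashed lines stand at a fold enrichment of 5 and a p-value of 0.001. All receptor peaks lie left of the vertical line, and only the Ctla4 peak lies under the horizontal one.

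The nectin-binding receptors were considered first. Tigit (ENSMUSG00000071552, chromosome 16, minus strand), the inhibitory receptor for Pvr, had 1 peak at 43662233 to 43664126. Its fold enrichment was 1.36 and its log10 p -4.53. The fold enrichment stood at percentile 7.76 of the list and the significance at percentile 53.3. The span of 1894 nt held the first intron, and 176 nt of it were exonic. These comprised 39 nt of the 5′ UTR and 137 nt of coding sequence in exons 1 and 2, from codon 1 to codon 46 of 241. The deposited label of this peak was 5′ UTR, but the centre of the exonic part lay 48 nt past the first base of the start codon. The peak of Tigit was thus at the beginning of the message. It held 1 DRACH site, the GAACA in capitals in the coding stretch shown above, of the 18 sites of this mRNA. All 18 lay in the coding sequence.

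Cd96 (ENSMUSG00000022657, chromosome 16, minus strand), a second receptor for Pvr, had its peak at the other end of the message. At 46035657 to 46035926 the fold enrichment was 2.16 (percentile 40.9) and the log10 p -21.3 (percentile 87.2). It lay wholly in exon 15 of 15 and covered the last 54 nt of the coding sequence, stop codon included, and all 216 nt of the 3′ UTR. Of its 3 DRACH sites, GAACC lay in the coding sequence. The A of the TGACT core was 128 nt past the stop codon, and a further site followed at 166 nt. The whole Cd96 mRNA had 47 sites.

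Lag3 (ENSMUSG00000030124, chromosome 6, minus strand), an inhibitory receptor for class II molecules, had a peak of nearly the same fold enrichment in a similar place. At 124904361 to 124904539 the fold enrichment was 2.15 (percentile 40.7) and the log10 p -9.96 (percentile 74.2). The peak held the last 98 coding nt and all 81 nt of the 3′ UTR, in exon 8 of 8. Its centre stood at -8 nt from the last base of the stop codon, so that it counted as coding here, whereas the deposited label was 3′ UTR. There were 4 DRACH sites in the peak, and the site nearest to its centre, TGACC, began with the stop codon itself. A GGACA lay in the coding sequence, at -57 nt from the same base. The non-coding transcript Lag3-202 overlapped 0 nt of the peak. The density was 22.3 sites per kb in the peak, beside 16.5 over the whole Lag3 mRNA.

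Ctla4 (ENSMUSG00000026011, chromosome 1, plus strand) encodes the receptor that competes with Cd28 for Cd80 and Cd86. Its peak at 60915295 to 60915384 reached a fold enrichment of 1.58 (percentile 18.0). The log10 p was -2.11 (percentile 22.8), the weakest of the group. It lay inside the 3′ UTR, from 578 to 667 nt past the stop codon, in exon 4 of 4. The exon was 1220 nt long. Among the annotated transcripts only the longest, Ctla4-201, held these 90 nt. The shorter coding transcript Ctla4-202 and the non-coding Ctla4-203 overlapped 0 nt of the peak. With 3 DRACH sites in 90 nt this weakest peak had the highest density of the group, 33.3 per kb, and it held both GGACA and GGACT. Another row of the list lay inside the span of Ctla4, at the pseudogene Rpl18-ps1 (60900898 to 60901247, fold enrichment 9.48, log10 p -1.69), and it overlapped 0 nt of Ctla4 exons.

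Ncr1 (ENSMUSG00000062524, chromosome 7, plus strand) had 3 peaks, the most of any receptor, and the lowest enrichments. The first, at 4337724 to 4337872, had a 1.33-fold enrichment (log10 p -8.24). It began at the first base of the transcript and held 25 nt of 5′ UTR and 47 coding nt, from codon 1 to codon 16 of 325. The second, at 4344690 to 4344779, had a 1.16-fold enrichment (log10 p -9.95). It covered the last 15 coding nt with the stop codon and 75 nt of the 3′ UTR. Its fold enrichment was at percentile 0.938 of the list and its significance at percentile 74.2. The third, at 4345046 to 4345164, had a 1.36-fold enrichment, and with a log10 p of -25.0 (percentile 89.0) it was the most significant of the 3 peaks of Ncr1. It filled the last 119 nt of the transcript. The peaks of Ncr1 thus lay at the start codon, at the stop codon and at the 3′ end, each with a small excess over input. On the alternative coding transcript Ncr1-202 the first peak had 104 exonic nt and its centre was in the 5′ UTR, whereas both others were placed as on Ncr1-201.

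Within their bounds the peaks of Ncr1 held few sites. The first 2 peaks held 0 DRACH sites, and the last held 1, AAACC. Another match, which crossed the boundary of this peak, was not counted. A site was present in 71.2% of the 1805 placed peaks whose exonic length was within 20% of that of the first peak. For the second this was 80.5% of 1505 peaks, and for the last 86.6% of 1390. The Ncr1 mRNA had 32 sites in all, or 21.9 per kb. When 100 nt either side of the peak centre was searched instead, all 9 receptor peaks had a site, those of Ncr1 included. This was so for 96.6% of placed peaks.

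Cd160 (ENSMUSG00000038304, chromosome 3, minus strand) had the largest extent in peaks and the highest fold enrichment. The proximal peak, at 96800187 to 96802378, had a 1.55-fold enrichment (percentile 16.5). Its log10 p was -41.9 (percentile 93.2), the most significant of the receptors. It included the last intron and had 535 exonic nt in exons 4 and 5, with 119 coding nt, the stop codon and 416 nt of the 3′ UTR. The distal peak, at 96798763 to 96799060, had a 4.57-fold enrichment (percentile 64.2), with a log10 p of -13.7 (percentile 80.6). It comprised the last 298 nt of the 3′ UTR, from 1543 to 1840 nt past the stop codon.

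The annotated transcripts of Cd160 separate these peaks. Cd160-202 (2590 nt) and Cd160-203 (2458 nt) hold both, whereas Cd160-201 (1121 nt) ends before the distal peak and overlaps 0 nt of it. The proximal peak overlapped 535 nt of Cd160-201 and Cd160-202 and 433 nt of Cd160-203. Of the annotated forms, only those with the long 3′ UTR thus hold the distal peak. How the input reads divide between the forms was not tested. The proximal peak held 9 DRACH sites and the distal 7, together 16 of the 57 sites of the mRNA.

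**Figure D2:**
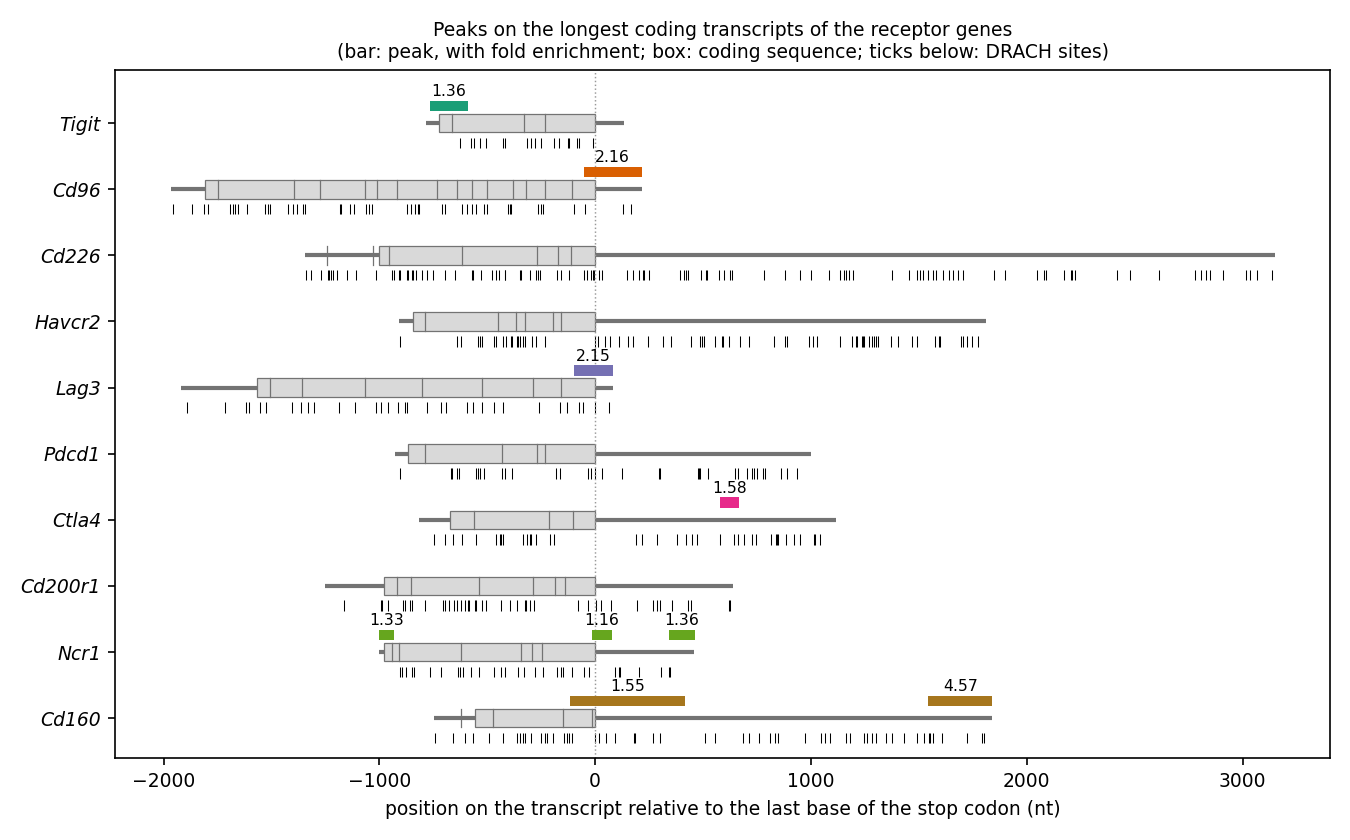
Longest coding transcript of each of the 10 receptor genes, aligned at the last base of the stop codon (x axis, nt). Boxes are coding sequence with exon junctions, coloured bars are peaks with their fold enrichment above, and short ticks below are DRACH sites. Cd96, Lag3, Ncr1 and Cd160 have a peak over the stop codon, Tigit and Ncr1 one at the start codon, and Cd226, Havcr2, Pdcd1 and Cd200r1 have none.

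By position, 6 of the 9 peaks had their centre in the 3′ UTR (66.7%, beside 54.1% of 15224 peaks placed on a coding transcript). The remaining 3 were in the coding sequence and 0 in the 5′ UTR, beside 36.3% and 9.56%. The stop codon was covered by 4 of the 9 peaks, against 21.3% of placed peaks, and the start codon by 2, against 15.4%. The centre was in the last exon for 7 of 9, beside 65.3%. The other 2 had it in the first exon, and no receptor peak had its centre in an internal exon.

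The motif was sparser in the receptor peaks than in peaks at large. There were 28 DRACH sites in 1829 exonic nt of receptor peaks, or 15.3 per kb, beside 20.2 per kb in all placed peaks. The peaks of Lag3 (22.3 per kb), Ctla4 (33.3) and the distal one of Cd160 (23.5) were above the latter value, and the others below it. A site was present in 7 of 9 receptor peaks and in 89.7% of placed peaks. The 6 mRNAs with a peak carried 226 sites, of which 12.4% lay in peaks, and the peaks made up 16.5% of their length. The share of sites in peaks was below the share of length for Tigit (5.56% against 19.2%), Cd96 (6.38% against 12.4%), Ncr1 (3.12% against 19.2%) and Cd160 (28.1% against 32.2%). It was above it for Lag3 (12.1% against 8.95%) and Ctla4 (7.69% against 4.66%). GGAC occurred in the peaks of Lag3 and Ctla4 alone. Only the strand of the gene was searched, overlapping matches were counted, and a match is a description and not a mapped m6A site.

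**Figure D3:**
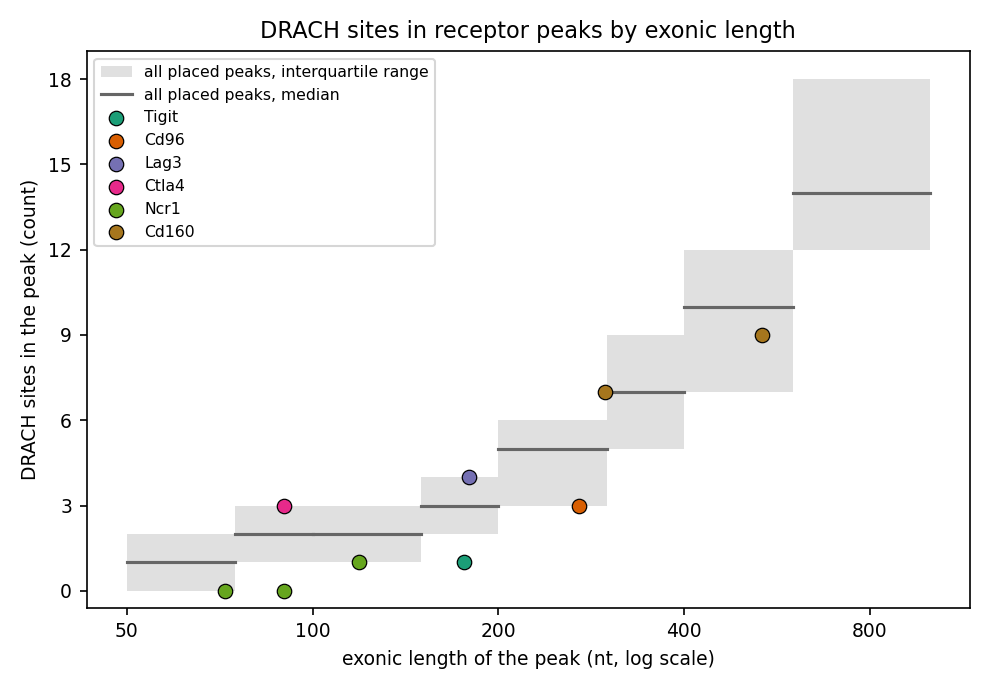
DRACH sites per peak (y axis, count) against exonic length (x axis, nt, log scale) for the 9 receptor peaks. Grey boxes and lines are the interquartile range and median of all placed peaks in bins of length. The peaks of Ctla4, Lag3 and the distal one of Cd160 lie above the median of their bin, and the other 6 lie below it.

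In Lag3 and Cd160 the stop codon was itself part of a motif. Both messages end their coding sequence with TGA followed by C, so that TGACC and TGACA begin with the stop codon, as shown in the sequences above. Such a site at the stop codon was found in 4 of the 10 receptor mRNAs, namely Lag3, Cd160, Havcr2 and Pdcd1, and in 9.31% of 21612 coding transcripts. Of 3213 placed peaks that covered an annotated stop codon, 10.6% had it, and among the receptor peaks 2 of 4. This pattern was noticed after the sequences were seen. Havcr2 and Pdcd1 had the site without a peak.

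The other 4 receptors had no peak in the list as analysed here. They were Cd226 (ENSMUSG00000034028, chromosome 18, 89176967 to 89272229), the activating partner of Tigit, Havcr2 (ENSMUSG00000020399, chromosome 11, 46454935 to 46481255), Pdcd1 (ENSMUSG00000026285, chromosome 1, 94038305 to 94052553) and Cd200r1 (ENSMUSG00000022667, chromosome 16, 44765736 to 44794978). No row assigned to another gene lay within any of these 4 spans either. The motif was denser than the median of coding transcripts (20.4 per kb) in Cd226, Havcr2 and Cd200r1, and sparser in Pdcd1. Cd226 had 110 DRACH sites in 4494 nt (24.5 per kb, percentile 87.0 of coding transcripts), Havcr2 70 in 2721 nt (25.7 per kb, percentile 92.0), Cd200r1 43 in 1892 nt (22.7 per kb, percentile 74.9) and Pdcd1 36 in 1930 nt (18.7 per kb, percentile 31.8). By comparison, Lag3, which had a peak, was at percentile 15.2. A gene without a peak may have lacked the mark, or RNA to detect it: no expression value per gene was used here, and these cannot be told apart. Of the nectin-binding set, Tigit and Cd96 thus had a peak and Cd226 did not.

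The ligands and partners of these receptors were described next. A peak was listed for 46.3% of all protein-coding genes, the share to set beside the counts of this and the following lists. In the nectin system 5 of 8 genes had a peak, and the highest fold enrichments were 47.4 at Nectin3, 43.6 at Pvr and 32.2 at Nectin1. The most significant peaks were those of Pvr (log10 p -97.1), Cadm1 (-67.5, fold enrichment 3.12) and Nectin3 (-10.3). This Cadm1 peak could not be placed on the longest coding transcript of the gene. Crtam, an activating receptor of the same system, had 1 peak with a fold enrichment of 1.53, between those of Tigit and Cd96. No peak was listed for Nectin2, Nectin4 and Pvrig. Over this list 4 of 8 genes reached a fold enrichment of 5, against 0 of the 10 receptors and 20.1% of protein-coding genes. Of these 4, Cadm1 did so only by a peak of 13.3-fold enrichment (log10 p -2.5) that overlapped 0 nt of its longest coding transcript. In the lists described below, a fold enrichment of 5 was reached by 1 of 11 checkpoint ligands and 2 of 13 related receptors. It was also reached by 3 of 18 signalling genes and 3 of 12 transcription factors. Among cell type markers the counts were 0 of 8 for NK cells, 0 of 5 for myeloid cells, 4 of 7 for T cells and 1 of 5 for B cells. The Nectin3 peak ran from 46387706 to 46447696 and had 528 exonic nt. Its deposited label was 5′ UTR, whereas its centre was placed in the 3′ UTR. The Nectin1 peak of 32.2-fold enrichment had a log10 p of -6.79.

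Among ligands of checkpoints 6 of 11 genes had a peak. The highest fold enrichments were 13.3 at Cd80, 4.43 at Tnfrsf14, the partner of Cd160, and 3.79 at Lgals3. The Cd80 peak was weak in significance (log10 p -2.5) and overlapped 0 nt of the longest coding transcript. The most significant peaks were those of Lgals3 (log10 p -112, fold enrichment 1.95), Hmgb1 (-24.8, 1.39) and Cd86 (-19.3, 2.28). Cd274 and Pdcd1lg2, the ligands of Pdcd1, had none, nor had Ceacam1, Fgl1 and Cd200, the ligand of Cd200r1. Receptors and ligands of the Pdcd1 and Cd200r1 pairs were all without a peak, as were most protein-coding genes.

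Receptors of related families had a peak in 8 of 13 genes and a median fold enrichment of 1.54, beside 1.55 for the 10 receptors. The highest values were 11.4 at Cd200r3, 9.48 at Cd28 and 3.79 at Vsir. The first 2 were weak in significance (log10 p -2.09 and -1.69), and the Cd28 peak overlapped 0 nt of the longest coding transcript. The most significant peaks were at Klrg1 (log10 p -35.8, fold enrichment 1.54), Cd244a (-11.3, 1.52) and Lair1 (-4.9, 1.25). Klrg1 and Lair1 are inhibitory receptors as well. Btla, Havcr1, Timd2, Cd200r2 and Cd200r4 had no peak. Of the family of Havcr2, its paralogues Havcr1 and Timd2 had no peak either, and Timd4 had 2 peaks with a highest fold enrichment of 2.17.

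Of the signalling proteins next to the receptors, 17 of 18 genes had a peak, with 38 peaks and a median fold enrichment of 1.71. Rasa1 had none. The highest fold enrichments were 26.6 at Ptpn11, where the peak overlapped 0 nt of the longest coding transcript, 7.24 at Dok1 and 6.64 at Grb2. The log10 p was -5.48 for this Ptpn11 peak and -3.75 for this Grb2 peak. The most significant Grb2 peak (log10 p -78.8) had a fold enrichment of 2.08. The most significant were Tyrobp (log10 p -179, fold enrichment 1.48), Fcer1g, the adaptor of Ncr1 (-121, 1.63), and Dok1 (-98.5, 7.24). Ptpn6, the phosphatase recruited by several of these inhibitory receptors, had 2 peaks, the more significant with a 3.25-fold enrichment (log10 p -86).

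**Figure D4:**
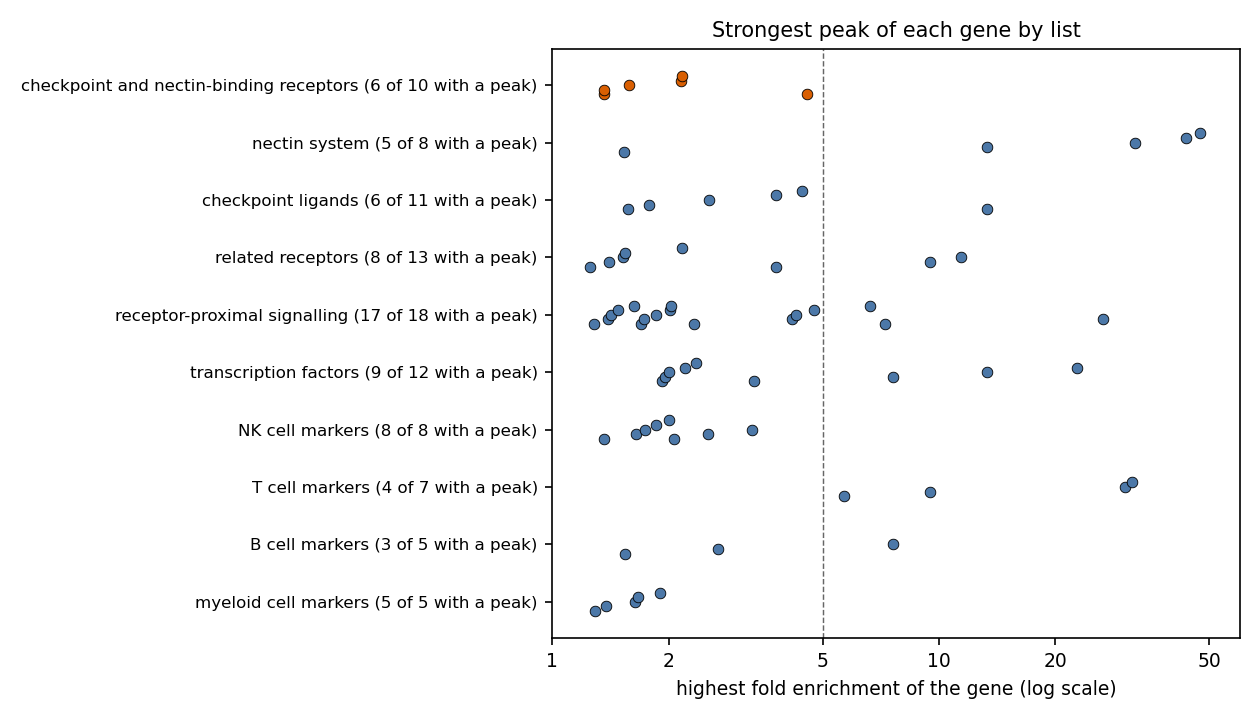
Highest fold enrichment of each gene with a peak (x axis, log scale, no unit), by list. Each point is a gene, the dashed line marks a fold enrichment of 5, and the counts of genes with a peak stand beside the names. The receptors in orange range from 1.36 to 4.57, all left of the line.

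The cell type was checked with lists of markers. All 8 NK cell markers had a peak (fold enrichments from 1.12 to 3.28 over 21 peaks), Ncr1 among them. Of T cell markers 4 of 7 had one, Cd3e, Cd3d, Cd3g and Cd28, and Cd4, Cd8a and Cd5 had none. The most significant of the T cell marker peaks was at Cd3g (log10 p -46.8, fold enrichment 3.79). Of B cell markers Cd79a, Cd79b (log10 p -27.6, fold enrichment 2.69) and Ighm had one, and Ms4a1 had none. All 5 myeloid markers had one, with fold enrichments from 1.12 to 1.9 over 7 peaks, among them Csf1r (log10 p -322) and Lyz2 (-143). Itgam, 1 of these 5, is also expressed by mature NK cells. A listed peak needs RNA of the gene in the libraries, so RNA of genes from all these lists was present. T cells also express Lag3 and Ctla4, and the part of other cells in the receptor peaks was not tested.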

How the data were processed

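MeRIP-seq of splenic NK cells comprised 4 libraries, 2 m6A immunoprecipitates and 2 inputs. Per the study's methods and notes, the authors trimmed reads, aligned them with HISAT2 to GRCm38, called peaks with exomePeak and annotated them with ChIPseeker. RNA was cut into short fragments before immunoprecipitation, which limits the resolution of a peak. The deposited list gives a fold enrichment, a ratio of immunoprecipitate to input, and a score that is the log10 of the unadjusted p-value, with a weakest value of -1.3. It has 0 columns per sample, and how replicates were combined is not given in the sources used here.

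Of 20751 rows, 24 exact repeats were removed. Of 12351 gene identifiers, 12332 were found in GENCODE M21 (GRCm38, the build of the files). A peak was placed on the transcript with the longest coding sequence, then the longest, by the midpoint of its exonic bases. This succeeded for 73.5% of peaks. Sequences are those of RefSeq's GRCm38.p6. Spans include introns. Placement and motif counts were tested on simulated data with 2000 transcripts (Python 3.11.15, NumPy 2.4.6, matplotlib 3.10.9).

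The members and lists were chosen with earlier results of these data known. All 10 members are named, and from each list the genes without a peak, at most 3 with the highest fold enrichment and at most 3 with the most significant peak. A marker gene is not reported here. Other genes, and the site at the stop codon, were chosen after their values were seen. Alternatives changed thresholds, repeats, merging, assignment, transcript, position and motif.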

Additional observations from a re-analysis of the deposited data

How the results depend on the processing

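Of 24 alternative values for 6 results, 13 counts stayed within 1.5 times the count reported, and 11 values are given here. Of these, 6 moved past 1.5 times and 5, medians and densities, moved by less. At a fold enrichment of at least 2 there were 3 peaks in 3 genes, those of Cd96, Lag3 and the distal one of Cd160, and at 5 or more there were 0 peaks and 0 genes. Over peaks with a p-value under 0.001 the median enrichment was 1.46, and with the strongest peak of each gene it was 1.86. GGAC was found in 2 peaks. The density of sites was 10.9 per kb for RRACH (the same motif beginning with A or G) and 1.64 for GGAC, beside 14.8 and 4.1 in all placed peaks. It was 16.0 within 100 nt of the centre, beside 19.6, and 14.4 at a p-value under 0.001. The stricter motifs and thresholds admit fewer sites or peaks by construction, and for the other changes the cause was not tested. Keeping repeated rows, merging overlapping peaks and taking any row that overlapped an exon each left 9 peaks. The count in the 3′ UTR ranged from 5 to 7.

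No paired analysis was possible because the list gives no value per sample. Omission of each replicate was not run for the same reason. Depth is not known, and what it means for the 4 genes without a peak could not be computed.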

Other observations

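Transcription factors of the effector and exhausted states, which control several of these receptors, had a peak in 9 of 12 genes, with a median fold enrichment of 2.01 over 18 peaks. The highest values were 22.8 at Tox (log10 p -4.61), 13.3 at Tox2 (-2.5) and 7.59 at Batf (-1.36). The Batf peak overlapped 0 nt of the longest coding transcript. The most significant peaks were at Tbx21 (log10 p -120, fold enrichment 2.22), Nr4a1 (-109, 3.32) and Eomes (-25.4, 1.6), all in the 3′ UTR. Prdm1, Irf4 and Tcf7 had none. The strongest peaks of Tox2, Cd80 and Cadm1 shared both values, 13.3 for the fold enrichment and -2.5 for the log10 p, and those of Cd28 and the Rpl18-ps1 row in Ctla4 shared 9.48 and -1.69.

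The bounds of receptor peaks often coincided with an annotated transcript end. The peaks of Cd96, Lag3, the last of Ncr1 and the distal of Cd160 ended at the last base of an annotated transcript, and the first of Ncr1 began at the first base of one. This is 5 of 9 peaks, beside 30.7% of all peaks and 21.2% of the 11195 placed peaks with a fold enrichment under 5. Whether peak calling within gene models sets these bounds was not tested.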
